A study of Mus musculus with 6 samples.

Results

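The secreted Wnt antagonists are a group of extracellular proteins that limit Wnt signalling, and 10 genes of this kind were followed here by name: Sfrp1, Sfrp2, Sfrp4, Sfrp5, Frzb, Wif1, Dkk1, Dkk2, Dkk3 and Notum. All 10 were found among the 19932 named genes of the arrays, each through 1 probe set keyed to a RefSeq transcript, so no choice between probe sets was needed. RNA was hybridised to whole-transcript Affymetrix arrays. Chondrocytes of the nasal septum were taken at embryonic day 17.5 (n = 3) and chondrocytes of the rib at postnatal day 1 (n = 3). Both groups came from wild-type ICR mice, an outbred strain, and were not treated. Every difference below is between embryonic nasal and postnatal rib cells, and what belongs to the site and what to the age cannot be told apart. The labels call the 3 samples of a group biological replicates without saying how many animals were pooled. Each sample is a mix of cells in bulk, in which fewer cells of a type and less RNA per cell cannot be told apart.

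Wnt proteins are lipid-modified signals that bind Frizzled receptors and the co-receptors Lrp5 and Lrp6. Canonical signalling stabilises beta-catenin, which acts with Tcf and Lef factors on target genes, and in the developing skeleton it restrains early chondrocyte commitment and favours hypertrophy and bone formation. The antagonists act outside the cell at different steps. Sfrp proteins and Frzb carry a Frizzled-like domain that binds Wnt, Wif1 binds Wnt through a domain of its own, Dkk1 and Dkk2 bind the Lrp co-receptors, and Notum is an enzyme that removes the lipid from Wnt.

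The antagonists did not move as 1 group. Of the 10 genes, 5 were higher in nasal cells (Sfrp1, Dkk3, Sfrp5, Dkk1 and Sfrp2) and 2 were higher in rib cells (Sfrp4 and Wif1), while Frzb, Dkk2 and Notum did not pass the test. The test was limma on log2 intensities over all genes, with a Benjamini-Hochberg adjusted p under 0.05 as the threshold. Over all genes, 28.5% passed it, 13.8% as higher in nasal and 14.7% as higher in rib. These shares come from 2746 and 2937 genes, which became 863 and 3706 when each array was centred on a set of receptor genes described below. Only Sfrp1 and Dkk3 both passed and differed by at least 2-fold (log2 of 1) as deposited, as did 3.75% of all genes. Under alternative settings the smallest log2 differences of these 2 genes were 0.92 and 0.82. Sfrp4 and Wif1 reached -1.26 and -1.18 in such settings. The median log2 difference, nasal minus rib, was 0.48 over the 10 genes and 0.11 over all genes. Every member of the group lay on the same side of 0 under all 18 alternative settings in which it could be tested (17 for Sfrp5, Dkk1 and Dkk2). The filters, the variance and probe set settings and the replicate block leave each estimate as it was. Only the other settings could have changed a sign.

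**Figure D1:**
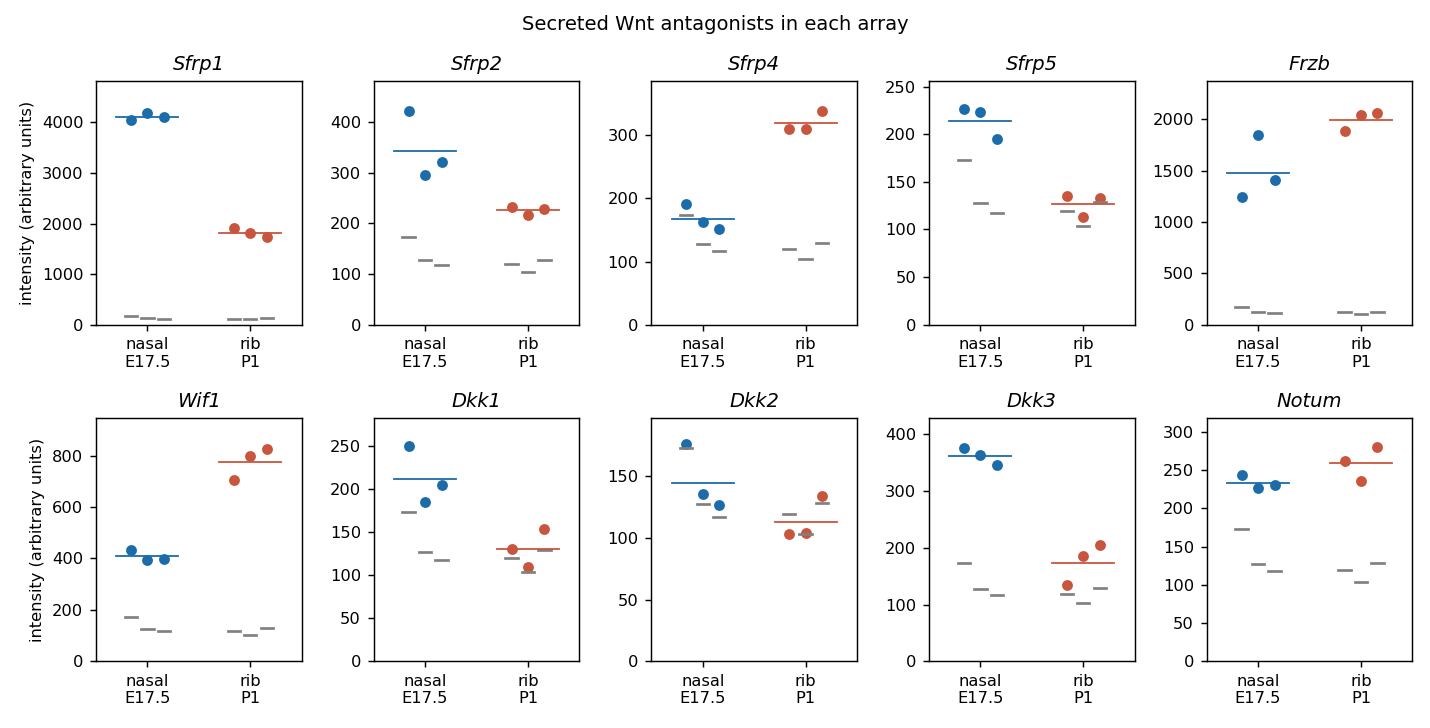
Intensity of each secreted Wnt antagonist on each of the 6 arrays (arbitrary linear units, axes from 0, a separate scale for each gene). Points are single arrays in the order of replicates 1 to 3, coloured lines are geometric means of the 3 arrays of a group, and short grey bars mark the 95th percentile of odorant and vomeronasal receptor genes on the same array; Sfrp1, Wif1 and Frzb stand far above those bars, and Dkk2 lies close to them.

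Because the deposited values carry no detection calls, low signals were set beside 1258 genes of odorant and vomeronasal receptors, which cartilage is not known to use. The 95th percentile of these genes ran from 117 to 173 on the nasal arrays and from 104 to 129 on the rib arrays. All antagonists except Dkk2 exceeded it on all 6 arrays. The receptor genes themselves had a median log2 difference of 0.24 towards nasal, and 6.2% of them passed the test, 72 as higher in nasal and 6 as higher in rib. Whether they held real signal in the nasal samples was not tested. Omp, a marker of olfactory neurons, was higher in nasal (312 against 184). The 9343 genes that lay under the all-gene median in both groups had a median log2 difference of 0.22. Nasal replicate 1 had the highest receptor gene level, and without this sample the same 7 antagonists passed.

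Sfrp1 encodes a secreted Frizzled-related protein that binds Wnt ligands. Its intensity was 4039, 4175 and 4112 in nasal replicates 1, 2 and 3, and 1919, 1813 and 1724 in rib replicates 1, 2 and 3. The 3 nasal values lay close together and more than 2-fold above every rib value. The geometric means were 4108 and 1817, a 2.26-fold difference (log2 1.18, SE 0.09, 95% interval 0.97 to 1.38, limma adjusted p = 0.000279). The 3 nasal log2 values had an SD of 0.024 and the 3 rib values one of 0.077. Over the alternatives its log2 difference ran from 0.92 to 1.22, always past the threshold.

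Sfrp2 and Sfrp5 are the closest relatives of Sfrp1 in the family. Intensities of Sfrp5 were 226, 223 and 195 in the nasal replicates and 135, 113 and 133 in the rib replicates. All nasal values exceeded all rib values, and Sfrp5 was 1.69-fold higher in nasal (log2 0.76, SE 0.11, limma adjusted p = 0.00319). In rib the signal stood only 1.04 to 1.13 times above the 95th percentile of the receptor genes, against 1.31 to 1.75 times in nasal. Its call held in every alternative that tested it, with a log2 difference from 0.51 to 0.97.

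Sfrp2 had intensities of 421, 296 and 321 in nasal and 232, 217 and 229 in rib. The groups did not overlap, although nasal replicate 1 stood well above the other nasal samples. The difference of 1.52-fold passed (log2 0.60, SE 0.14, limma adjusted p = 0.0198). It no longer passed without rib replicate 1 (adjusted p = 0.0601), rib replicate 2 (0.0713) or rib replicate 3 (0.0568), nor after each array was centred on the receptor genes (log2 0.35, adjusted p = 0.0945). Without nasal replicate 1 the log2 difference was 0.45 and still passed (adjusted p = 0.0133).

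Sfrp4 and Frzb form the other branch of the family, and both had lower values in nasal than in rib. Sfrp4 stood at 192, 163 and 151 in the nasal replicates and at 309, 310 and 339 in the rib replicates. No nasal value reached the lowest rib value. The gene was 1.90-fold higher in rib (log2 -0.93, SE 0.11, limma adjusted p = 0.00155). In nasal its signal was only 1.11 to 1.29 times the 95th percentile of the receptor genes, and in rib 2.59 to 2.99 times. After the median of the receptor genes was subtracted on each array, the log2 difference was -1.26.

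Frzb was first isolated from articular cartilage and is made by chondrocytes. It measured 1244, 1845 and 1408 in nasal and 1884, 2044 and 2059 in rib. Every rib value was above every nasal value, but nasal replicate 2 came within a few percent of the lowest rib sample. Its log2 difference of -0.43 (SE 0.15, 95% interval -0.79 to -0.07) had a limma adjusted p of 0.0758, just short of the threshold. It passed as higher in rib under 7 of 18 alternatives, among them quantile normalization (-0.43, adjusted p = 0.0308) and the fit without nasal replicate 2 (-0.59, adjusted p = 0.0211). The SD of the log2 values was 0.29 in nasal and 0.071 in rib, the widest nasal spread among the 10 genes.

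The split of the Sfrp genes thus followed the 2 branches of the family, with Sfrp1, Sfrp2 and Sfrp5 higher in nasal and Sfrp4 and Frzb at lower values there, although Frzb did not pass. This grouping by relatedness was made after the values were seen and was not tested.

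**Figure D2:**
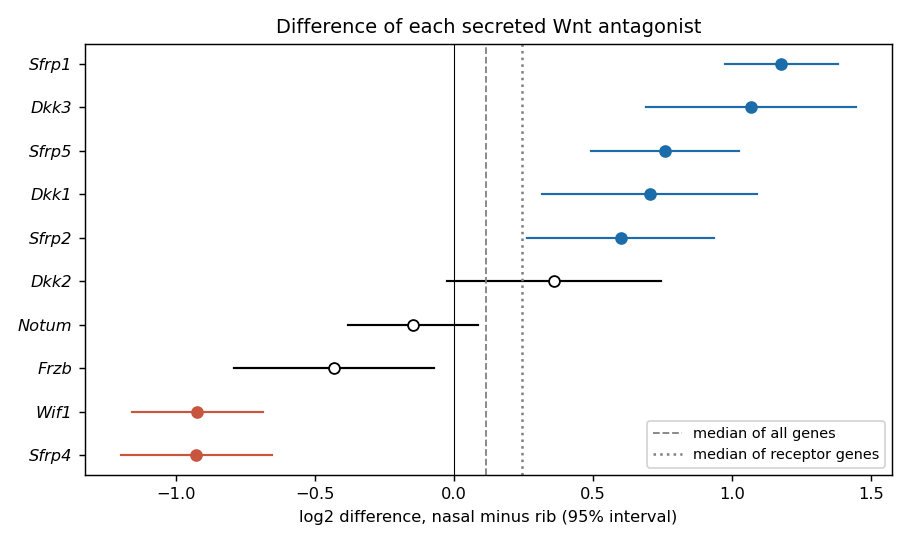
Log2 difference, nasal minus rib, of each antagonist with its 95% interval from limma, ordered by size (3 arrays a group). Filled points passed an adjusted p of 0.05 (blue, higher in nasal; red, higher in rib) and open points did not; the dashed line marks the median of all genes (0.11) and the dotted line that of the receptor genes (0.24).

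Wif1, Wnt inhibitory factor 1, is produced by cartilage and binds several Wnt proteins. Its intensity was 432, 395 and 399 in the nasal replicates and 705, 800 and 825 in the rib replicates. The lowest rib value was far above the highest nasal value. Wif1 was 1.90-fold higher in rib (log2 -0.92, SE 0.10, 95% interval -1.16 to -0.69, limma adjusted p = 0.00092). Across the alternatives its log2 difference lay between -1.18 and -0.80, and it passed in each. Among the 45 pairs of antagonists, Wif1 and Sfrp4 had the most similar profiles over the 6 arrays, with a root mean square difference of 0.084 on the log2 scale after each gene was centred on its own mean.

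Of the Dickkopf genes, Dkk3 differed most. Dkk3 is the divergent member of the family and, unlike Dkk1 and Dkk2, is not known as a ligand of the Lrp co-receptors. Nasal replicates had 377, 364 and 346 and rib replicates 135, 186 and 204. The nasal samples agreed closely, while rib replicate 1 stood below the other rib samples. Rib signals of Dkk3 were 1.13 to 1.80 times the 95th percentile of the receptor genes, the lowest being replicate 1. Nasal signals were 2.18 to 2.95 times that percentile. The difference of 2.10-fold (log2 1.07, SE 0.16, limma adjusted p = 0.00324) fell to log2 0.89 without rib replicate 1 and still passed (adjusted p = 0.00573). Over the alternatives the log2 difference of Dkk3 ran from 0.82 to 1.28, always past the threshold.

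Dkk1 blocks canonical signalling by binding Lrp5 and Lrp6 and is itself a known target of beta-catenin. Its intensity was 249, 185 and 204 in nasal and 131, 109 and 154 in rib. All nasal values were higher than all rib values, with a wide spread in both groups (SD of log2 values 0.22 and 0.25). Dkk1 was 1.63-fold higher in nasal (log2 0.70, SE 0.16, limma adjusted p = 0.0186). The call was lost without rib replicate 1 (adjusted p = 0.0621) or rib replicate 2 (log2 0.58, adjusted p = 0.061). In rib the signal was 1.05 to 1.19 times the 95th percentile of the receptor genes. After centring on the receptor genes the log2 difference of Dkk1 fell to 0.45 (limma adjusted p = 0.0403).

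Dkk2, which can inhibit or promote canonical signalling depending on the setting, was near that percentile in both groups. It had 176, 136 and 127 in nasal and 104, 104 and 134 in rib, and rib replicate 3 exceeded nasal replicate 3. The log2 difference of 0.36 (SE 0.16, limma adjusted p = 0.145) did not pass here or in any alternative, and was 0.11 after centring on the receptor genes and 0.22 without nasal replicate 1. A difference between the groups was thus not detectable for Dkk2 with 3 arrays a group.

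Notum, the enzyme that inactivates Wnt, had 244, 227 and 230 in nasal and 262, 235 and 280 in rib. The groups overlapped at nasal replicate 1 and rib replicate 2. Its log2 difference was -0.15 (SE 0.10, 95% interval -0.38 to 0.09, limma adjusted p = 0.296), and the interval spans 0. The estimate moved to -0.40 after centring on the receptor genes (adjusted p = 0.0819), to -0.25 with their level subtracted (0.0526) and to -0.09 without rib replicate 3. In all, the nasal and rib values of 8 of the 10 antagonists did not overlap, against 45.7% of all genes. In 5 of them the nasal values were above (24.0% of all genes) and in 3 the rib values were (21.7%).

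Promoter sequence was at hand for 6 of the antagonists from RefSeq (GRCm38.p6), and the 250 bases before the annotated start of 3 that differed are shown, since Dkk1 and Sfrp5 were higher in nasal and Wif1 in rib. The window of Sfrp2, which also passed, is not printed because it held none of the motifs, as Sfrp5 already shows. Capitals mark matches on either strand to TCAAAG (a core of Tcf/Lef sites), ACAAT or ACAAAG (cores of Sox sites) and TATAAA (the TATA box). ACAAAG also fits Tcf/Lef sites. TCAAAG and ACAAAG share 5 letters but cannot match at the same place.
Dkk1, chr19:30549497-30549746, minus strand: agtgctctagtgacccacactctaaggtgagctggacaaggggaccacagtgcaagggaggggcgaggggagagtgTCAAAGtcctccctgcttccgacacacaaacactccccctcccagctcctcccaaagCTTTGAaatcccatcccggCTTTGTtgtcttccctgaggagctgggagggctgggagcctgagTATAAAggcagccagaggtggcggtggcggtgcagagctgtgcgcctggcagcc
Sfrp5, chr19:42202253-42202502, minus strand: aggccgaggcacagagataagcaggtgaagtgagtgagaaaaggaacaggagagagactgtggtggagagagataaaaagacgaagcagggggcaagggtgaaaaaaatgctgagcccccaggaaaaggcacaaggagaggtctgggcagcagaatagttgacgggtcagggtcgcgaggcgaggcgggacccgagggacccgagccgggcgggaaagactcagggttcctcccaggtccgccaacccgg
Wif1, chr10:121033754-121034003, plus strand: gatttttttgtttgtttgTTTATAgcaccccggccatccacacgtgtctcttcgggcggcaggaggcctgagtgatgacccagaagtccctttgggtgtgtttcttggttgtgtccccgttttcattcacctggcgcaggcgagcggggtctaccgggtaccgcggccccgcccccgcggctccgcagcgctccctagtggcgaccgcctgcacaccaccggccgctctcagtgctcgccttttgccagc

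The Dkk1 window held 2 matches to TCAAAG, from 174 to 169 and from 117 to 112 bases before the start, 1 match to ACAAAG from 98 to 93 bases and a TATAAA from 54 to 49 bases. The Sfrp5 window held none of the 4 motifs, and the Wif1 window held TATAAA on the opposite strand, from 232 to 227 bases before the start. Of 32851 such windows of mouse genes, 13.8% held TCAAAG, 27.7% ACAAT, 16.5% ACAAAG and 12.4% TATAAA. Among the windows not printed, that of Frzb held TCAAAG, that of Dkk2 held ACAAAG and TATAAA, and that of Sfrp2 held 16 CpG. The Wif1 window was the richest of the 6 in CpG, with 21, against 13 for Sfrp5, 6 for Dkk1 and a median of 6 over all windows. These matches describe the letters of the windows only.

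**Figure D3:**
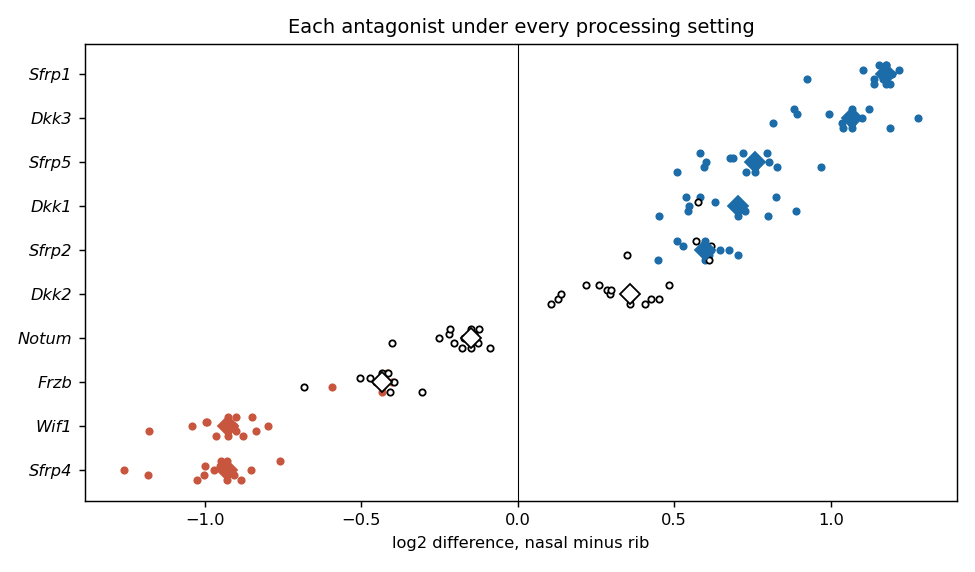
Log2 difference, nasal minus rib, of each antagonist as deposited (diamonds) and under each alternative setting (small circles, 17 or 18 a gene). Filled symbols passed an adjusted p of 0.05 in that setting (blue, higher in nasal; red, higher in rib) and open ones did not; Sfrp1, Dkk3, Sfrp5, Wif1 and Sfrp4 are filled throughout, and Dkk2 and Notum are open throughout.

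The rest of the Wnt pathway was read from the same fit to set the antagonists in context. Among 85 other genes in 7 lists, 28 passed, with 14 in each direction. This share of 32.9% is near the 28.5% of all genes, and the counts of the single lists below were not tested against it. Their median log2 difference was 0.16. With arrays centred on the receptor genes, the counts were 2 and 17.

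Of 19 Wnt ligands, 2 passed, both as higher in nasal. Wnt4 had 418, 321 and 403 in nasal against 178, 168 and 191 (log2 1.08, SE 0.13, limma adjusted p = 0.00123). Wnt5a, which mostly signals without beta-catenin, had 637, 683 and 760 in nasal against 336, 365 and 403 (log2 0.91, SE 0.11). Neither gene's groups overlapped, and both stayed past the threshold in all 17 alternatives. In 3 of the ligands, Wnt1, Wnt3 and Wnt8b, no array exceeded the receptor genes' 95th percentile.

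Frizzled receptors divided. Fzd2 was higher in rib, with 303, 336 and 302 in nasal against 650, 569 and 615 (log2 -0.96, SE 0.10, limma adjusted p = 0.00075), as were Fzd7 (-0.73, SE 0.09) and Fzd8 (-0.62, SE 0.09). Fzd6 (0.55, SE 0.11) and Fzd4 (0.52, SE 0.14) were higher in nasal. The Dkk co-receptor Lrp6 was also higher in nasal, with 3072, 2741 and 2554 against 1852, 1975 and 1925 (0.54, SE 0.10, limma adjusted p = 0.0079). In all, 7 of the 16 receptor genes passed, of which 3 had nasal above rib and 4 the reverse. Fzd4 lost its call without nasal replicate 2 or 3 or rib replicate 1 or 2 and with the receptor gene level subtracted (adjusted p = 0.0652), and Fzd4, Fzd6 and Lrp6 lost theirs after centring on the receptor genes.

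Among regulators at the membrane and outside the cell, Rspo3, which amplifies Wnt signals, was higher in rib, with 591, 651 and 618 in nasal against 1102, 1004 and 1003 (log2 -0.74, SE 0.09, limma adjusted p = 0.00154). Znrf3, a ligase that removes Frizzled receptors, was higher in rib by less (-0.36, SE 0.09). These were the 2 of 9 genes of the R-spondin list to pass. Of 14 other inhibitors, 4 passed, all as higher in nasal. They were led by Trabd2b, a protease that cleaves Wnt (0.64, SE 0.09, limma adjusted p = 0.00246), Sostdc1 (0.53, SE 0.10) and Apcdd1 (0.42, SE 0.10), with Kremen2 as the fourth. Cyclic loess ended the call of Znrf3 (adjusted p = 0.053), as did leaving out nasal replicate 2, rib replicate 1 or rib replicate 2. Apcdd1 lost its call without nasal replicate 3 or rib replicate 1 or 2. Sostdc1 lost its own under cyclic loess (adjusted p = 0.0859) and quantile normalization (0.111). Median centring ended the call of Apcdd1 (0.0516). After centring on the receptor genes none of the 4 inhibitors passed in limma, Trabd2b included (log2 0.39, adjusted p = 0.159).

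Of the Wnt secretion genes Wls and Porcn, neither passed, nor did either reach an unadjusted p of 0.05 (0.14, SE 0.08, limma adjusted p = 0.253, and 0.27, SE 0.14, adjusted p = 0.199). Wls changed sign after centring on the receptor genes (-0.11).

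Inside the cell, Ctnnb1, which encodes beta-catenin, was higher in nasal, at 6216, 6598 and 6397 against 4886, 4735 and 4572 (log2 0.44, SE 0.08, limma adjusted p = 0.00876). So were the kinase genes Csnk1a1 (0.58, SE 0.10) and Gsk3b (0.50, SE 0.13). The Dishevelled genes Dvl3 (-0.68, SE 0.11) and Dvl2 (-0.56, SE 0.08) and the kinase gene Gsk3a (-0.60, SE 0.09) were higher in rib. Geometric means of Gsk3a were 2126 in nasal and 3219 in rib, and those of Gsk3b 1489 and 1054. Of the 16 transducers, 9 passed, and in 6 of these the rib level was higher. After centring on the receptor genes Csnk1a1 (log2 0.33, adjusted p = 0.283), Gsk3b (0.25, 0.463) and Ctnnb1 (0.18, 0.517) no longer passed. Centring each array on its median ended the calls of Ctnnb1 (adjusted p = 0.0567) and Gsk3b (0.0701), and Gsk3b lost its call without nasal replicate 2 or 3 or rib replicate 2 or 3.

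Genes that respond to beta-catenin went both ways, with 2 of 9 higher in nasal and 2 in rib. Axin2, a feedback inhibitor widely used as a readout of canonical signalling, had 271, 247 and 250 in nasal against 184, 158 and 183 (log2 0.55, SE 0.10, limma adjusted p = 0.00761). Nkd1, another feedback inhibitor, was higher in nasal by 0.37 (SE 0.10), a call lost without nasal replicate 2 or 3 or rib replicate 2 or 3. Lef1, a partner of beta-catenin on DNA, had 252, 200 and 234 in nasal against 434, 489 and 515 (log2 -1.07, SE 0.12, limma adjusted p = 0.00111). Bambi, a decoy receptor of the BMP and TGF-beta pathway, was higher in rib as well (-1.02, SE 0.13). Centring on the receptor genes left Lef1 and Bambi past the threshold and ended the calls of Axin2 and Nkd1.

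**Figure D4:**
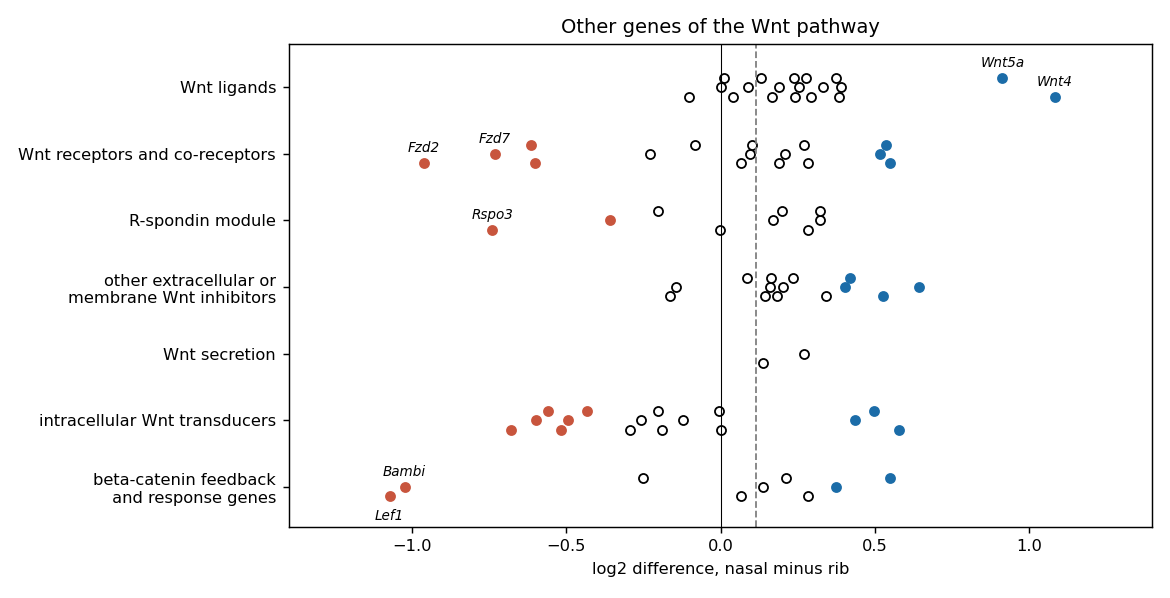
Log2 difference, nasal minus rib, of 85 other Wnt pathway genes in 7 lists (3 arrays a group; vertical offsets within a list only separate points). Filled points passed an adjusted p of 0.05 (blue, higher in nasal; red, higher in rib), genes that passed with a difference of at least 0.7 are named, and the dashed line marks the median of all genes (0.11).

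For each antagonist that passed, the nearest profiles among all named genes that passed were found by the same root mean square difference over the 6 arrays. Nearest to Sfrp1 were Otor, which encodes the cartilage protein otoraplin (0.030), and Ehd4 (0.033). Those nearest to Wif1 were Ndor1 (0.028) and Tmem39b (0.032), and those nearest to Sfrp4 were Sting1 (0.043) and Klc2 (0.043). Sfrp2 was nearest to St8sia2 (0.029) and Folh1 (0.050), and Sfrp5 to Hao1 (0.040) and Irak3 (0.047). The nearest profiles were less alike for Dkk1, with Evi2 (0.062) and Sdk1 (0.062), and for Dkk3, with Tm4sf1 (0.092) and Batf (0.097). Folh1, Hao1 and Evi2 lay below the receptor genes' 95th percentile on all 6 arrays and Otor on 5 of them, so their distances rest on signals near background. Profiles over 6 arrays in 2 groups are set mostly by the group difference, and these distances are a description.

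Markers of the labelled cell type were detected in both groups, but some differed widely. All 16 chondrocyte markers exceeded the receptor genes' 95th percentile on every array, and 13 of them did not pass, Col2a1 (log2 -0.25, SE 0.08) and Acan (0.19, SE 0.08) among them. Matn1, a cartilage matrix protein, was at 11590 in nasal against 1833 (log2 2.66, SE 0.09) and Comp, another, at 2652 against 7483 (-1.50, SE 0.10), and both passed. Col2a1 passed as higher in rib under 7 of 17 alternatives and Acan as higher in nasal under 3. Acan changed sign under cyclic loess and after centring on the receptor genes. Sox9 was lower in nasal by a margin just past the threshold (-0.28, SE 0.09, limma adjusted p = 0.0491), and this call was lost without any 1 of the 6 samples.

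The tendon and articular surface list had 4 of 7 genes higher in rib, with a summed intensity of 12550 to 13521 in nasal and 14258 to 15118 in rib. Most of each sum was Fmod, at 10683 in nasal and 11654 in rib, which did not pass (log2 -0.13). The ends of the list were Tnmd (-1.63, SE 0.32), above the receptor genes' 95th percentile on 3 arrays, and Prg4 (0.22, not past the threshold). The perichondrium and fibroblast list had 5 of 14 genes past the threshold, 4 of them on the rib side, with overlapping sums (28996 to 31192 and 28156 to 34006), from Col14a1 (-0.92, SE 0.20) to Prrx1 (0.67, SE 0.10). Col14a1 lost its call without nasal replicate 2 or rib replicate 2, and Prrx1 after centring on the receptor genes. In the hypertrophic list 5 of 9 passed, 3 on the rib side, and the sums were 14783 to 15251 in nasal against 22360 to 24126 in rib. Spp1 carried this gap (4351 against 12414, log2 -1.51, SE 0.11), since without it the sums overlapped, at 10433 to 10989 and 10563 to 11237. Ibsp went the other way (1211 against 294, log2 2.04, SE 0.23). Of 10 muscle markers, 2 passed, both on the rib side, with Tnnt3 (-1.24, SE 0.13) and Myog (0.46, limma adjusted p = 0.057) as the ends. The muscle sums were 1622 to 2108 in nasal and 2166 to 2583 in rib. Tnnt3 alone was at 322 in nasal against 764 in rib, and the median log2 difference of this list was 0.01. The osteoblast list had 2 of 6 genes higher in nasal (sums of 1574 to 1649 and 1138 to 1259) and the endothelial list 2 of 6 (829 to 1251 and 585 to 696). Bglap was the lowest of the former (-0.22, not past the threshold), and Emcn (1.30, SE 0.19) and Kdr (0.16, not past the threshold) were the ends of the latter. In the glia and neuron list Sox10 (0.85, SE 0.11) and Stmn2 were higher in nasal, with sums of 1006 to 1186 and 745 to 916. Stmn2 exceeded the receptor genes' 95th percentile on only 1 array, and Tubb3 and Elavl4 of this list on no array. In the epithelial list Omp, a marker of olfactory neurons, and Cdh1 were higher in nasal and Epcam (-0.45, SE 0.09) in rib, with Bpifa1 at the top (0.98, adjusted p = 0.0522) and overlapping sums (1989 to 2760.0 and 1980 to 2233). Of 5 erythroid markers, Alas2 was higher in rib (-1.02, SE 0.21), with overlapping sums (1665 to 7152 and 2714 to 6721). None of 8 leukocyte markers passed in limma and 1 had an unadjusted p under 0.05, from C1qb (0.03) to Csf1r (0.40). Their sums were 1872 to 2045 in nasal and 1650 to 1748 in rib, of which Cd14 alone was 1171 and 1010. Cd14 was the only 1 of the 8 above the receptor genes' 95th percentile on all 6 arrays. Of the endothelial markers, Kdr and Tek did not exceed the receptor genes' 95th percentile on any array, nor did Ptprc, Adgre1 and Lyz2 of the leukocyte list. Emcn and Cdh5, the 2 endothelial genes that passed, exceeded that percentile on the 3 nasal arrays only. The signs of C1qb, Kdr and Prg4 changed under other scalings, and that of Bglap without rib replicate 1. The part of these lists in the differences of the antagonists was not tested.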

How the data were processed

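The authors deposited 1 table of intensities on a linear scale for 28451 probe sets and 6 arrays. Per the submitters' processing notes, RMA was used, with no version, while the sources used here do not give its settings or the genome build. Each array's mean intensity, with 2% of probe sets trimmed at each end, was 500, so the deposited arrays had been scaled to 1 level. Median intensities ran from 209 to 261, and correlations within a group, across probe sets, lay between 0.987 and 0.993.

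From these values log2 was taken with no pseudocount. RefSeq accessions were matched without versions to a mouse gene table (GRCm38.p6, names only), which gave 1 symbol to 24935 probe sets and none to 3516. The probe set with the highest mean was kept for each of 19932 genes, and nasal minus rib differences were fitted with limma 3.58.1 (lmFit, eBayes) in R 4.3.3 on all 6 samples, with no covariate and Benjamini-Hochberg adjustment over all genes. Levels are geometric means of 3 arrays, SE is limma's, and the number of arrays limits the precision. An exact permutation test of 3 against 3 cannot go below a two-sided p of 0.1 and was not used. The procedure was tested on simulated data, with 50 genes changed at each size. It recovered 28% of true log2 differences of 0.5, 70% of those of 1 and 94% of those of 2, so small differences are often missed.

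The antagonists and the gene lists were chosen with earlier results of these data known. All 10 antagonists are named. From each other Wnt list the rule names up to 3 genes per direction that passed, with the largest differences, or the 2 of highest mean, and for each antagonist that passed the 2 nearest profiles, leaving out predicted, clone and receptor-segment names. From the marker lists it names Sox9, Col2a1, Acan and the lowest and highest difference of each list, some of which are not reported here. Kremen2, Stmn2, Omp, Cdh1, Cdh5, Fmod, Cd14, Wnt1, Wnt3, Wnt8b and the dim markers were named after their values were seen. The labels give no batch, and none could be checked. Alternatives were other normalizations, an offset of 50, filters on dim genes, other variance settings, other uses of probe sets, a replicate block, leaving out each sample, and 2 settings based on the receptor genes that were chosen after seeing the data.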

Additional observations from a re-analysis of the deposited data

How the results depend on the processing

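Sfrp1, Dkk3, Sfrp5, Sfrp4 and Wif1 kept their direction and their call in every alternative that tested them. The filter at the median removed Sfrp5, Dkk1 and Dkk2, which left 3 antagonists higher in nasal. Leaving out 1 sample at a time gave 3 to 5 antagonists higher in nasal, log2 differences of 0.45 to 0.70 for Sfrp2, 0.58 to 0.82 for Dkk1 and -0.59 to -0.31 for Frzb, 0.22 to 0.48 for Dkk2 and -0.22 to -0.09 for Notum, and over all genes 1639 to 2596 calls in nasal and 1827 to 3168 in rib, the fewest without rib replicate 2. Frzb passed after quantile normalization (-0.43), cyclic loess (-0.40) and an offset of 50 (-0.42), and at -0.43 with either filter on dim genes and with trend and robust variance. Centring on the receptor genes, a setting chosen after seeing the data, ended the call of Sfrp2 (0.35), left 863 genes higher in nasal and 3706 in rib over all genes, and left 2 other Wnt genes higher in nasal. It moved the median of all genes from 0.11 to -0.14, and quantile normalization moved it to -0.0051. The former also turned the sign of Wls (-0.11) and Acan (-0.060), and cyclic loess turned Acan too (-0.0068). Markers that did not pass also changed sign. C1qb was at -0.22 after quantile normalization, -0.21 under cyclic loess, -0.23 after receptor gene centring and -0.13 to 0.12 with 1 sample left out, at -0.046 after median centring and at -0.15 with the receptor gene level subtracted. Kdr was at -0.076, -0.070, -0.089 and -0.016 to 0.27 under the first 4 of these settings. Prg4 was at -0.029 after receptor gene centring, and Bglap at -0.40 to 0.079 with 1 sample left out. The cause of these changes was not tested. Same-numbered nasal and rib samples had deviations correlated at -0.018, 0.22 and -0.28 across genes, and differently numbered ones at -0.37 to 0.38. With 3 samples a group, these values cannot tell whether the numbers pair the samples. The replicate block left the same 7 antagonists past the threshold, with Sfrp1 at 1.18 (adjusted p = 0.00526), and cut the other Wnt genes higher in nasal from 14 to 9, with Fzd4, Apcdd1, Gsk3b and Nkd1 among those lost, and Znrf3 lost in rib. Leaving out 1 sample gave 9 to 15 of these. Among the antagonists Dkk2 lay nearest the receptor genes' 95th percentile. Its signal was 1.02 to 1.08 times this percentile in nasal and 0.87 to 1.04 times in rib. How far background signal limits the differences of genes near this level was not tested.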
